A study of Homo sapiens with 8 samples.

Results

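A set of 10 genes that cells commonly switch on in answer to transforming growth factor beta (TGF-beta) or bone morphogenetic proteins (BMP) were followed in U87MG cells exposed to the antiandrogen enzalutamide. They were taken by gene symbol, 10 of the 23368 genes listed for each library, and all 10 were abundant enough to be tested. ID1, ID2, ID3 and SMAD6 were treated as BMP targets, SKIL, PMEPA1 and SMAD7 as TGF-beta targets, and THBS1, TGFBI and BAMBI as further targets. The name of the set describes what the genes are known to respond to. Neither ligand was added according to the labels, and no SMAD protein was measured.

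U87MG is an established human glioblastoma line, grown here in DMEM with serum and antibiotics. The study sequenced RNA from 2 untreated libraries (control) and from 2 libraries each after 4, 24 and 48 h of enzalutamide, 8 libraries of 24620833 to 37162565 counts. The labels give no dose and no vehicle, and the untreated dishes have no time, so the drug and anything else that differed between dishes cannot be told apart. An extraction note speaks of harvest after differentiation, which no other label mentions. Whether replicates came from separate cultures is unstated, so the p-values measure the spread between these libraries only, which may be technical. A level is a share of a library's RNA, so fewer cells with a transcript and less of it per cell cannot be told apart.

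Across genes, which are not independent points, replicates correlated at 0.992 to 0.995, and their counts differed by 4.61 to 20.4 times the sampling noise (chi-square per degree of freedom). VIM and CD44, mesenchymal markers known in this line, lay at 5611 to 13641 and 1880 to 2953 CPM (a gene's share of the counts of its library on the usual counts-per-million scale, adjusted by TMM factors, which even out RNA composition). CDKN2A, known to be deleted in U87MG, was listed at 0 to 1 count per library, as was the neural stem cell factor SOX2, and the astrocyte marker GFAP reached at most 0.633 CPM. Markers of leukocytes (PTPRC), endothelium (PECAM1), epithelium (EPCAM) and neurons (RBFOX3) stayed at or below 0.64 CPM. The oligodendrocyte marker MBP was higher, at 1.53 to 3.04 CPM. Of the further glial markers, OLIG2 lay at 1.35 to 2.72 CPM and NES at 10.9 to 43.3 CPM. Some markers moved with time, and their part in the results was not tested. VIM was at 5750 and 5611 CPM in the 4 h libraries and 13641 and 12520 in the 48 h libraries, against 7732 to 8068 in control and 24 h. PECAM1 had 16 and 21 counts in the 4 h libraries and 3 to 8 in the other 6, and PTPRC 5 and 6 against 0 to 1. The 48 h libraries stood apart in scaling, with TMM factors of 0.87 and 0.899 against 1.02 to 1.08 in the other 6.

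In both pathways a secreted ligand brings together a pair of receptor kinases, which phosphorylate SMAD proteins that then enter the nucleus with SMAD4. TGF-beta and activin act mainly through SMAD2 and SMAD3, and BMPs through SMAD1, SMAD5 and SMAD9. Many direct targets are brakes on the pathway: SMAD6 and SMAD7 block the receptors, SKIL represses SMAD complexes on DNA, PMEPA1 holds SMADs away from the receptor, and BAMBI is a receptor decoy without a kinase. In glioblastoma TGF-beta is known as a driver of invasion and stem-like growth, while BMPs are known to push tumour stem cells towards an astrocyte fate. Several of these genes also answer to other signals, among them serum, stress kinases and androgens.

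The plot of levels by library shows all 10 genes. Most were highest at 4 h. By 48 h ID1, SMAD6, PMEPA1 and THBS1 had dropped far below the untreated level, and TGFBI and BAMBI were above it.

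**Figure D1:**
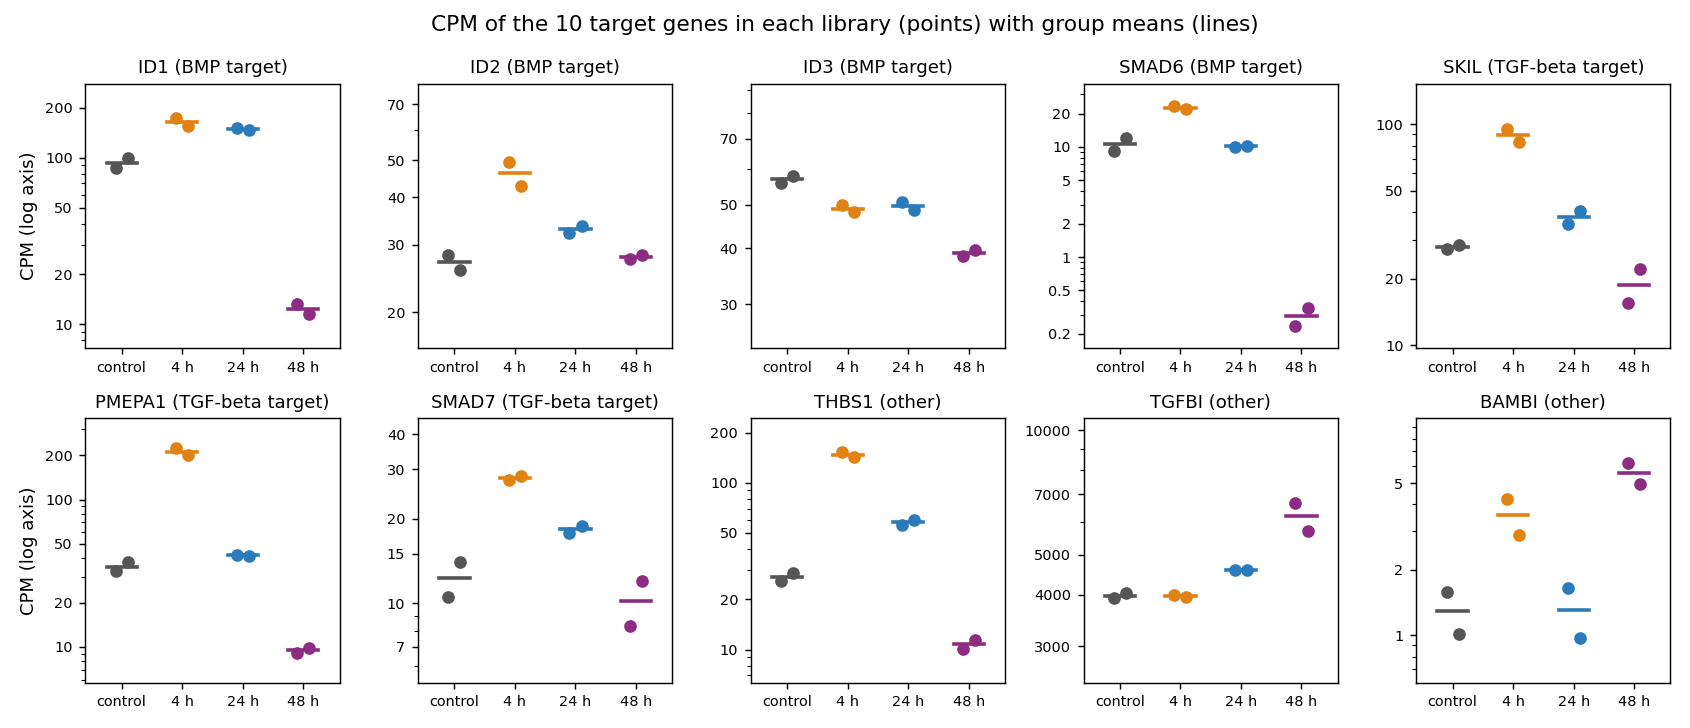
Level of each target gene in CPM (log axis, its own range per panel) in the 2 libraries of control, 4, 24 and 48 h. Points are libraries and lines are group means. PMEPA1 and THBS1 reach 222 and 152 CPM at 4 h, and SMAD6 falls to 0.238 and 0.344 CPM at 48 h.

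The TGF-beta targets peaked together at 4 h. PMEPA1, a membrane-anchored inhibitor of TGF-beta signalling, held 32.5 and 37.6 CPM in control, 222 and 201 after 4 h, 42.2 and 41.4 after 24 h, and 9.12 and 9.87 after 48 h. The 4 groups did not overlap, and the order was 4 h, 24 h, control, 48 h. It rose 6.02-fold at 4 h (log2 change 2.59, SE 0.09, adjusted p = 2.4e-08 by edgeR's quasi-likelihood test, as for every adjusted p below), the 40th largest change of 14448 genes tested. It was 3.69-fold below control at 48 h (log2 change -1.89, SE 0.10, adjusted p = 3.77e-08). The step between 24 h and control missed the threshold (log2 change 0.25, SE 0.09, adjusted p = 0.0568), though without control replicate 2 it passed (0.36, adjusted p = 0.0443), as it did without either 48 h library (0.26, adjusted p = 0.0142 and 0.0141).

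SKIL encodes SnoN, a nuclear partner that shuts SMAD complexes off. Its levels were 27.2 and 28.5 CPM in control, 95.6 and 82.8 after 4 h, 35.2 and 40.7 after 24 h, and 15.5 and 22 after 48 h, again without overlap between groups. SKIL rose 3.2-fold at 4 h (log2 change 1.68, SE 0.14, adjusted p = 1.18e-05). At 48 h it was lower than control (log2 change -0.57, SE 0.15, adjusted p = 0.00461), and the 48 h replicates were far apart: without 48 h replicate 1 the change was -0.33. With library totals it was -0.85 (adjusted p = 0.000571). The 24 h rise was small (log2 change 0.45, SE 0.14, adjusted p = 0.0402) and lost its call without any one of the control, 4 h or 24 h libraries (adjusted p = 0.0557 to 0.269), or with library totals (adjusted p = 0.0859).

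SMAD7, which sits on the activated receptor and brings ubiquitin ligases to it, had 245 to 970 counts per library. Its CPM were 10.5 and 14 in control, 27.4 and 28.5 after 4 h, 17.8 and 18.9 after 24 h, and 8.34 and 12 after 48 h. Control and 48 h overlapped; 4 h and 24 h stood above both. It rose 2.28-fold at 4 h (log2 change 1.19, SE 0.16, adjusted p = 0.000308). The 24 h rise (log2 change 0.58, SE 0.16, adjusted p = 0.0255) was lost without control replicate 1 (adjusted p = 0.22), 24 h replicate 1 (adjusted p = 0.0902) or 24 h replicate 2 (adjusted p = 0.15), or with library totals (adjusted p = 0.0536). At 48 h it did not pass the test (log2 change -0.27, SE 0.17, adjusted p = 0.181), but did without 48 h replicate 2 (-0.55, adjusted p = 0.00766).

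The BMP targets did not move as 1 group. ID1 encodes a helix-loop-helix protein that lacks a DNA-binding region and so ties up factors that drive differentiation. ID1 lay at 86.3 and 98.9 CPM in control, 174 and 154 after 4 h, 150 and 146 after 24 h, and 13.2 and 11.5 after 48 h. From 4 to 24 h its log2 change was -0.15 (SE 0.09, adjusted p = 0.203), although it passed in a fit of the 4 h and 24 h libraries alone (-0.15, adjusted p = 0.0419) and in one without the 48 h libraries (-0.17, adjusted p = 0.0435). ID1 rose 1.77-fold at 4 h (log2 change 0.82, SE 0.09, adjusted p = 6.6e-05) and 1.6-fold at 24 h (log2 change 0.68, SE 0.09, adjusted p = 0.000351). It was 7.48-fold lower than control at 48 h (log2 change -2.90, SE 0.10, adjusted p = 2.53e-09).

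SMAD6, the inhibitory SMAD that preferentially restrains BMP receptors, had the largest change of the set. Its levels were 9.18 and 12.1 CPM in control, 23.5 and 21.9 after 4 h, 9.9 and 10.3 after 24 h, and 0.238 and 0.344 after 48 h. The 48 h values rest on 7 and 10 counts, against 324 and 421 in the control libraries. SMAD6 rose 2.13-fold at 4 h (log2 change 1.09, SE 0.14, adjusted p = 0.000184) and was back among the control values at 24 h (log2 change -0.08, SE 0.14, adjusted p = 0.745). At 48 h it was 36.1-fold below control (log2 change -5.18, SE 0.25, adjusted p = 2.12e-08), the 19th largest change of 14448 genes.

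ID2 and ID3, close relatives of ID1 with the same inhibitory role, kept within much narrower ranges. ID2 lay at 28.2 and 25.8 CPM in control, 49.5 and 42.8 after 4 h, 32.2 and 33.7 after 24 h, and 27.6 and 28.3 after 48 h. It rose at 4 h (log2 change 0.77, SE 0.09, adjusted p = 0.000121), and its 48 h libraries overlapped the control libraries (log2 change 0.05, SE 0.09, adjusted p = 0.658). Scaled by library totals, ID2 was lower at 48 h (-0.23, adjusted p = 0.0452). Its call at 24 h (log2 change 0.29, SE 0.09, adjusted p = 0.0436) was lost without any one of the control or 24 h libraries (adjusted p = 0.0957 to 0.245), by DESeq2 (adjusted p = 0.084) and with library totals (adjusted p = 0.098).

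ID3 was the one member called lower at 4 h. Its libraries held 55.9 and 58 CPM in control, 49.8 and 48.2 after 4 h, 50.7 and 48.7 after 24 h, and 38.4 and 39.7 after 48 h. The 4 h and 24 h groups overlapped, control lay above them and 48 h below. The fall at 4 h was small (log2 change -0.22, SE 0.07, adjusted p = 0.0356) and lost its call without any one of the control, 4 h or 24 h libraries (adjusted p = 0.0662 to 0.195) and by DESeq2 (adjusted p = 0.0572). The fall at 48 h was larger (log2 change -0.54, SE 0.07, adjusted p = 3.7e-05), and was -0.82 with library totals (adjusted p = 2.43e-06).

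THBS1 encodes thrombospondin 1, a matrix protein that can release TGF-beta from its latent form. Its levels were 25.6 and 28.6 CPM in control, 152 and 142 after 4 h, 55.7 and 60 after 24 h, and 10.1 and 11.4 after 48 h, with no overlap between groups. It rose 5.42-fold at 4 h (log2 change 2.44, SE 0.09, adjusted p = 2.4e-08) and was still 2.13-fold up at 24 h (log2 change 1.09, SE 0.08, adjusted p = 1.02e-05). By 48 h it was 2.52-fold below control (log2 change -1.33, SE 0.10, adjusted p = 3.77e-07).

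TGFBI, a secreted matrix protein that binds integrins and collagen, ran the other way. It held 3915 and 4043 CPM in control, 3985 and 3944 after 4 h, 4594 and 4581 after 24 h, and 6670 and 5707 after 48 h. Control and 4 h overlapped and did not pass the test (log2 change -0.01, SE 0.07, adjusted p = 0.967). TGFBI rose 1.56-fold at 48 h (log2 change 0.64, SE 0.07, adjusted p = 8.51e-06), or by 0.36 on the log2 scale with library totals.

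BAMBI, the kinase-less decoy receptor, was sparse, with 33 to 182 counts per library. Its levels were 1.59 and 1.01 CPM in control, 4.24 and 2.88 after 4 h, 1.65 and 0.969 after 24 h, and 6.19 and 4.95 after 48 h, so control and 24 h overlapped and 4 h and 48 h lay above. It was 4.28-fold higher than control at 48 h (log2 change 2.10, SE 0.30, adjusted p = 8.76e-05). The rise at 4 h (log2 change 1.44, SE 0.31, adjusted p = 0.00601) was lost without 4 h replicate 1 (adjusted p = 0.0581) or control replicate 2 (adjusted p = 0.0647).

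**Figure D2:**
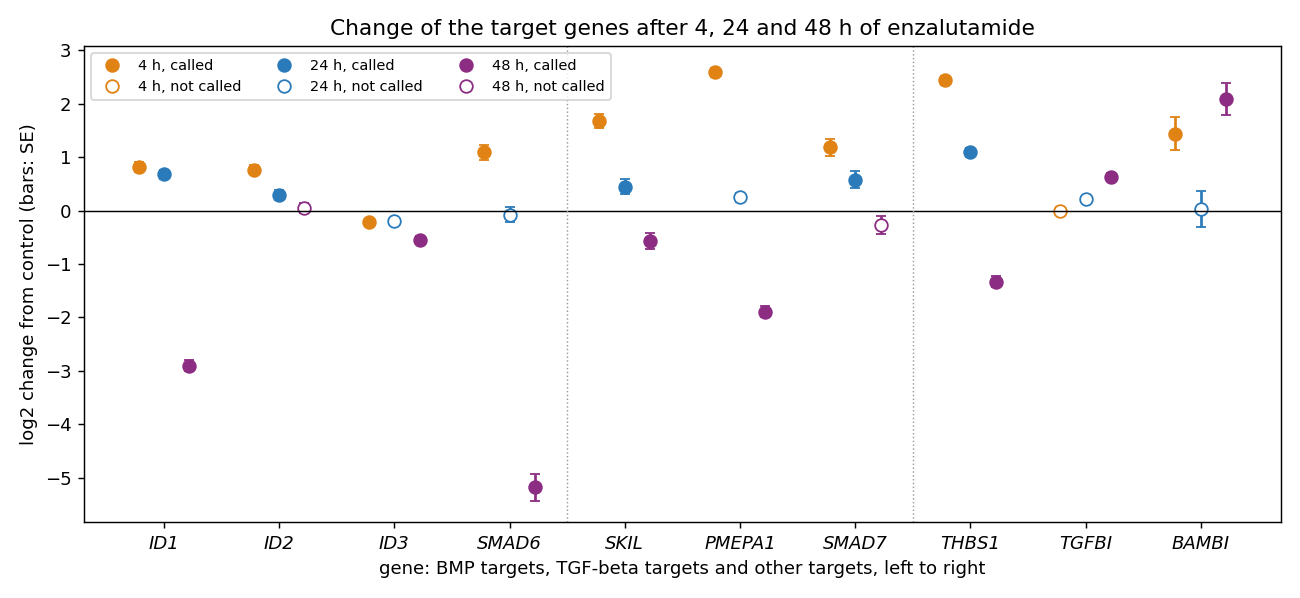
Log2 change from control of each gene after 4, 24 and 48 h (y axis; bars are standard errors), with filled points past an adjusted p of 0.05 and open points not. At 4 h all but ID3 and TGFBI lie above 0, and at 48 h the values run from -5.18 for SMAD6 to 2.10 for BAMBI.

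At 4 h, 8 of the 10 genes were higher than control and 1 was lower, where 28.6% of all genes tested were called, 15% higher and 13.6% lower. At least 2-fold higher were 6 of them (PMEPA1, THBS1, SKIL, BAMBI, SMAD7 and SMAD6), against 2.44% of all genes, and none at least 2-fold lower (1.63%). The median log2 change of the 10 was 1.14, beside 0 for all genes. At 24 h 5 were higher and none lower (22.3% of all genes called, 12.9% higher and 9.39% lower), with a median of 0.27, and the further 5 did not pass. THBS1 alone was at least 2-fold higher (1.69% of all genes) and none at least 2-fold lower (1.18%). That count depended on the setting more than the others did. The share called among all genes moved with it. The count was 2 without control replicate 1, 24 h replicate 1 or 24 h replicate 2 (9.18%, 9.85% and 9.11% of all genes called), and 7 higher with 1 lower without either 48 h library (33.4% of all genes called) or without both (34.1%), where ID3 was the lower one and PMEPA1 and TGFBI the added higher ones. It was 2 higher and 1 lower with library totals (22.7%), and 3 and 1 with DESeq2 size factors (22.5%).

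At 48 h 2 genes were higher and 6 lower, a share not far from the 66.9% called among all genes (33.3% higher and 33.5% lower). The median was -0.56, beside -0.02 for all genes. ID1, SMAD6, PMEPA1 and THBS1 were lower by at least 2-fold, as were 15.8% of all genes, and BAMBI was higher by at least 2-fold, as were 5.3%. Library totals shifted the median of all genes at 48 h to -0.30; on that scale 2 members were higher and 8 lower, with SMAD7 and ID2 added to the lower ones, and of the 14448 genes tested 2742 were higher and 6729 lower.

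The steps between treated groups set treated libraries against each other, and the control libraries enter only through the spread, filter and scaling of the shared fit. From 4 to 24 h 7 genes fell and 1 rose (41.5% of all genes called, 20.3% lower and 21.2% higher). PMEPA1 fell by 2.34 on the log2 scale (SE 0.09, adjusted p = 1.55e-08), THBS1 fell by 1.34, SKIL fell by 1.23 and SMAD6 fell by 1.17, and 5 fell at least 2-fold (3.77% of all genes; none rose so far, against 4.18%). The riser was TGFBI (log2 change 0.21, SE 0.07, adjusted p = 0.0278), which lost its call without any one of the 4 h or 24 h libraries (adjusted p = 0.109 to 0.141) or by DESeq2 (adjusted p = 0.0579). SMAD7 fell by 0.61 (SE 0.16, adjusted p = 0.00944), a call lost without 24 h replicate 1 (adjusted p = 0.0738) or 4 h replicate 2 (adjusted p = 0.0632). From 24 to 48 h 8 fell and 2 rose (66.8% called, 35.3% lower and 31.5% higher). SMAD6 fell by 5.10 (SE 0.25, adjusted p = 2.6e-08), ID1 fell by 3.58 (SE 0.10, adjusted p = 8.16e-10) and THBS1 fell by 2.43 (SE 0.09, adjusted p = 4.43e-09), while BAMBI rose by 2.07 (SE 0.30, adjusted p = 8.74e-05). At least 2-fold lower were 5 genes (16.1% of all) and 1 was at least 2-fold higher (5.52%). ID2 fell by only 0.24 (SE 0.09, adjusted p = 0.0381), and its call was lost without control replicate 1 or 2, 24 h replicate 1 or 2, or 48 h replicate 1 (adjusted p = 0.0515 to 0.185), and by DESeq2 (0.123). Between the 4 h and 48 h groups 8 were lower and 2 higher, TGFBI and BAMBI (69.5% called, 35% lower and 34.5% higher), 6 of them at least 2-fold lower (17.8% of all genes) and none at least 2-fold higher (7.09%). BAMBI (log2 change 0.66, SE 0.27, adjusted p = 0.0484) lost this call without 4 h replicate 2 (0.40, adjusted p = 0.309), 48 h replicate 1 (0.50, adjusted p = 0.174) or with library totals (0.45, adjusted p = 0.164).

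To set BMP against TGF-beta targets, the mean log2 CPM of SKIL, PMEPA1 and SMAD7 was subtracted from that of ID1, ID2, ID3 and SMAD6 within each library, where the scaling cancels. This difference was 0.67 and 0.57 in control, -0.57 and -0.60 after 4 h, 0.41 and 0.32 after 24 h, and -0.40 and -0.70 after 48 h. It was thus lower in both 4 h and both 48 h libraries than in the other 4. No test was made, since the genes were chosen with their values known. The 2 drops arose from different movements. At 4 h both means were above control, the TGF-beta mean by 1.87 and 1.77 and the BMP mean by 0.69 and 0.55. At 48 h both were below, the BMP mean by -2.12 and -2.04 and the TGF-beta mean by -1.10 and -0.73.

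**Figure D3:**
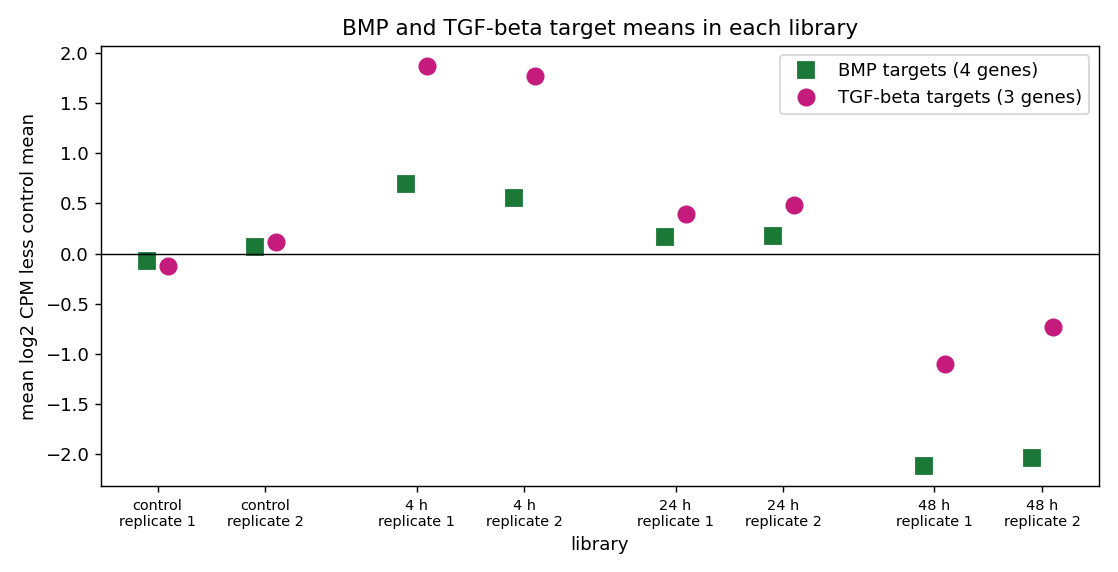
Mean log2 CPM of the 4 BMP targets (squares) and the 3 TGF-beta targets (circles) in each library, less the mean of the control libraries. The circles lie above the squares in every treated library, by 1.18 and 1.22 at 4 h and by 1.01 and 1.31 at 48 h.

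At 48 h this contrast rested on 1 gene. The change from control was -1.16 with all 7 genes, -0.21 without SMAD6 and 0.33 with medians in place of means. At 4 h it was -1.20, and -0.82 without PMEPA1, -1.36 without SMAD6 and -1.40 with medians. The 4 BMP targets at 48 h spanned from -5.18 (SMAD6) and -2.90 (ID1) to -0.54 (ID3) and 0.05 (ID2).

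Sequence around the start sites is shown for the genes with the largest rises at 4 h (SKIL, PMEPA1 and THBS1) and the largest falls at 48 h (SMAD6 and ID1), 5′ to 3′ on the strand of the gene, from RefSeq on GRCh38.p14. All 10 genes matched, with 15 windows of 300 bases (250 before a start and 50 after), 4 of them for PMEPA1 and 3 for SMAD7. Capitals mark matches on either strand to the SMAD motif CAGAC, the palindromic SMAD site GTCTAGAC and the GC-rich SMAD site GGCGCC. They also mark the cAMP response element TGACGTCA and the AP-1 site TGANTCA. TGACGTCA was added after the sequences had been read.
SKIL: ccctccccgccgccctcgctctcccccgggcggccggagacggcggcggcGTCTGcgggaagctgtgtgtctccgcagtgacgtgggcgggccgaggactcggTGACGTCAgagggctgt
PMEPA1: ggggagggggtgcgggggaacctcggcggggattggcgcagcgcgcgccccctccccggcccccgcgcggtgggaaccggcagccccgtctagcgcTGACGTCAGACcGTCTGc
THBS1: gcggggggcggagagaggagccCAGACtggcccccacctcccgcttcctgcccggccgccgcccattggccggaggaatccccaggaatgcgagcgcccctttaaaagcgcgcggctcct
SMAD6: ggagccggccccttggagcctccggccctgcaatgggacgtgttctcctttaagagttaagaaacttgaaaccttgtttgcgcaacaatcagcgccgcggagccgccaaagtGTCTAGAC
ID1: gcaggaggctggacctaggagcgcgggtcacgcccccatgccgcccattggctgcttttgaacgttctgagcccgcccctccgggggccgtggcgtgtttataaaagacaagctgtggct

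The SKIL stretch is chr3:170357558-170357677 (plus strand), the PMEPA1 stretch chr20:57710002-57710115 (minus strand, the third of its starts) and the THBS1 stretch chr15:39580949-39581068 (plus strand). The SMAD6 stretch is chr15:66702112-66702231 and the ID1 stretch chr20:31605159-31605278, both on the plus strand. None overlaps an exon of GENCODE 29 except the SMAD6 stretch, whose last 4 bases are the start of its first exon. Counted from each start, TGACGTCA lies at -54 to -47 in SKIL and across the start, at -4 to 4, in PMEPA1, where its last bases overlap a CAGAC at 3 to 7. That motif was in 1.85% of the 35116 windows of all genes, and in none of the other windows of PMEPA1. A gene with several windows has more chances of a match than this share per window. The window of PMEPA1 to print was picked by hand, and counts per gene cannot tell which start was used. GTCTAGAC lies at -12 to -5 of SMAD6 and was in 0.202% of windows. CAGAC is common, in 45.3% of windows, and was in at least 1 window of 6 members: ID3, SKIL, PMEPA1, SMAD7, THBS1 and BAMBI. The shares are per window and the members are counted by gene, so these are not like measures. GGCGCC, in 19.2% of windows, was in windows of SKIL, PMEPA1, TGFBI and BAMBI, and TGANTCA, in 7.71%, in none. In the windows of ID1 and ID2 none of the 5 motifs was found. A match describes the letters and not a bound site, and these windows leave out distant enhancers.

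All genes of sufficient level were ranked by how alike their time course was to that of PMEPA1 or ID1. Likeness was the root mean square difference, over the 6 treated libraries, of log2 CPM less the control mean, among 11027 other genes. Closest to PMEPA1 were C5orf45 (0.25), IL11 (0.32), HAS1 (0.43) and CHST3 (0.44). IL11, an interleukin 6 family cytokine and itself a known TGF-beta target, changed by 3.00, -0.02 and -2.09 at 4, 24 and 48 h. Among the members THBS1 ranked 8th for PMEPA1 (0.59) and SKIL 27th (0.93), while ID1 (rank 143, 1.21) came before SMAD7 (rank 175, 1.25). Closest to ID1 were KIAA0040 (0.30), the chemokine gene CCL20 (0.33), the metalloprotease gene ADAM19 (0.35) and DHFRL1 (0.37). Of the other members, PMEPA1 came closest to ID1 at rank 925 (1.21), SMAD6 stood at rank 1169 (1.27) and ID2 at rank 4106 (1.72).

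The rest of the pathway was followed through 79 genes listed by role, of which 68 were tested. At 4 h 24 were higher and 7 lower, 45.6% of those tested, where 28.6% of all genes were called. At 24 h 12 were higher and 6 lower (26.5%, against 22.3% of all genes), and at 48 h 19 were higher and 30 lower (72.1%, against 66.9%), so the shares at these times lay near that of all genes. Their median log2 changes of 0.10, -0.03 and -0.26 were smaller than those of the 10 targets. Scaled by library totals, the 48 h split was 11 higher and 38 lower. Without the 48 h libraries, the 24 h counts were 17 higher and 11 lower. All comparisons with control share the same 2 control libraries.

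**Figure D4:**
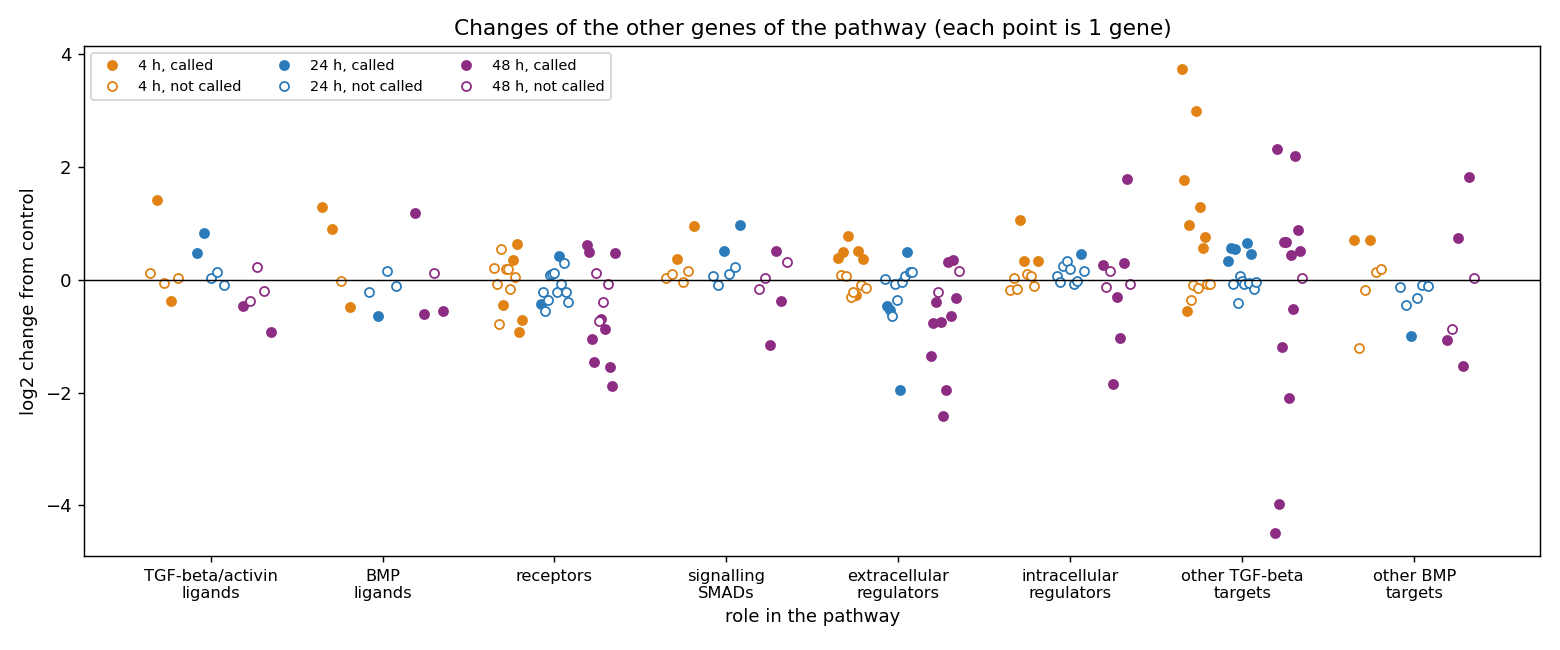
Log2 change from control (y axis) of each tested pathway gene outside the 10 targets, by role (x axis) and time (colour), filled where the adjusted p was under 0.05. The widest spread is among the other TGF-beta targets, from ANGPTL4 at 3.74 at 4 h to -4.49 at 48 h.

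Ligand genes were few at a measurable level: 5 of 7 TGF-beta and activin genes and 4 of 7 BMP genes were tested. At 48 h 2 of the former were lower and none higher (4 and none with library totals). INHBA, which encodes the subunit of activin A, rose from 3.76 to 9.96 CPM at 4 h (log2 change 1.41, SE 0.20, adjusted p = 0.000363). BMP2 rose from 9.22 to 22.8 CPM at 4 h (log2 change 1.30, SE 0.14, adjusted p = 7.53e-05) and was high again at 48 h, at 21.1 CPM (log2 change 1.19, SE 0.14, adjusted p = 2.22e-05). BMP6 rose at 4 h (log2 change 0.90, SE 0.12) and was lower than control at 24 h (-0.64, SE 0.12) and 48 h (-0.61, SE 0.13). TGFB3 was lower at 48 h (-0.93, SE 0.20), as was GDF11 (-0.46, SE 0.12). TGFB2 was called lower at 4 h (-0.37, SE 0.11), a call lost without any one of the control or 24 h libraries or 4 h replicate 2 (adjusted p = 0.0536 to 0.257).

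Among the 13 receptor genes, all tested, 2 were higher and 3 lower at 4 h (1 and 3 with library totals), then 1 and 1 at 24 h (none and 2 with library totals), and 3 and 6 at 48 h (1 and 7 with library totals). TGFBR2, the receptor that binds TGF-beta first, fell from 138 to 73.1 CPM at 4 h (log2 change -0.92, SE 0.08, adjusted p = 1.91e-05) and was at 37.3 CPM at 48 h (-1.89, SE 0.09, adjusted p = 1.38e-08). TGFBR1, its signalling partner, rose from 159 to 247 CPM at 4 h (0.63, SE 0.11, adjusted p = 0.002), when TGFBR2 fell, and was at 54.4 CPM at 48 h (-1.55, SE 0.12, adjusted p = 6.87e-07). TGFBR3, the co-receptor betaglycan, was called lower at 4 h (-0.71, SE 0.16) but not without 4 h replicate 1 (adjusted p = 0.0698). At 48 h it was called higher (0.48, SE 0.15, adjusted p = 0.0146), though not with library totals (0.20, adjusted p = 0.28), nor without 48 h replicate 2 or either control library (adjusted p = 0.057 to 0.063). The BMP type I receptor ACVR1 was lower at 24 h (-0.43, SE 0.08, adjusted p = 0.00273) and higher at 48 h, at 167 CPM against 108 (0.62, SE 0.08, adjusted p = 3.03e-05; 0.34 with library totals). BMPR2, the BMP type II receptor, was lower at 48 h (-0.88, SE 0.13, adjusted p = 9.23e-05).

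Of the 6 signalling SMAD genes, 2 were higher at 4 h and at 24 h, and 1 was higher and 2 lower at 48 h (1 and 4 with library totals). SMAD3, the effector of TGF-beta, rose from 113 to 146 CPM at 4 h (log2 change 0.37, SE 0.07) and 162 at 24 h (0.52, SE 0.07), then stood at 50.9 at 48 h (-1.15, SE 0.07, adjusted p = 1.71e-07). SMAD9, a BMP effector that is also a BMP target, went from 12.3 CPM to 23.7 at 4 h (0.95, SE 0.14) and 24.1 at 24 h (0.97, SE 0.14). SMAD4, the partner shared by both branches, was higher at 48 h (0.51, SE 0.08, adjusted p = 0.000112).

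Secreted regulators, with 12 of 14 genes tested, were higher in 5 cases and lower in 1 at 4 h, then 1 and 3 at 24 h, then 2 and 8 at 48 h (none and 8 with library totals). GREM1, a secreted BMP antagonist, rose from 355 to 606 CPM at 4 h (log2 change 0.77, SE 0.06, adjusted p = 1.06e-05), and LTBP2, a matrix protein of the latent TGF-beta binding family, rose too (0.51, SE 0.09, adjusted p = 0.00135). Both were lower than control at 48 h, GREM1 at 211 CPM (-0.75, SE 0.06, adjusted p = 1.3e-06) and LTBP2 at 29 CPM (-0.65, SE 0.09, adjusted p = 6.23e-05). LRRC32, which anchors latent TGF-beta on the cell surface, was down from 22.1 CPM to 5.66 at 24 h (-1.96, SE 0.15, adjusted p = 9.38e-06) and 5.68 at 48 h (-1.96, SE 0.15, adjusted p = 7.59e-07). Inside the cell, 9 of 11 regulator genes were tested, with 3 higher and none lower at 4 h (2 and 1 with library totals). At 24 h 1 was higher, and at 48 h 3 were higher and 3 lower (1 and 5 with library totals). These were 33.3%, 11.1% and 66.7% at the 3 times, against the same shares of all genes. SKI, a corepressor related to SKIL, rose from 53.7 to 113 CPM at 4 h (1.07, SE 0.18, adjusted p = 0.00129) and was at 15 CPM at 48 h (-1.84, SE 0.20, adjusted p = 9.28e-06). TGIF1, a further SMAD corepressor, rose to 109 CPM at 24 h and 273 at 48 h from 79.3 in control (0.46, SE 0.07, and 1.79, SE 0.07).

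Other TGF-beta targets, 13 of 14 tested, were higher in 7 cases and lower in 1 at 4 h, then 5 and none at 24 h, then 7 and 5 at 48 h (5 and 6 with library totals). IL11 rose from 71.6 to 572 CPM at 4 h (log2 change 3.00, SE 0.11, adjusted p = 3.1e-08). ANGPTL4 rose from 8.92 to 120 CPM (3.74, SE 0.10, adjusted p = 5.74e-09) and was at 0.394 CPM at 48 h (-4.49, SE 0.19, adjusted p = 8.62e-09). BHLHE40, a helix-loop-helix repressor, was higher at all 3 times, by 1.77 at 4 h (SE 0.08, adjusted p = 1.37e-07), 0.57 at 24 h (SE 0.08, adjusted p = 0.000469) and 2.32 at 48 h (SE 0.08, adjusted p = 2.31e-09). COL1A1 was lower at 4 h (-0.55, SE 0.10, adjusted p = 0.00253) and down to 9.48 CPM from 149 at 48 h (-3.98, SE 0.13, adjusted p = 1.17e-09). Other BMP targets, 6 of 7 tested, were higher in 2 cases at 4 h, lower in 1 at 24 h, and 2 and 2 at 48 h. Their called shares were 33.3%, 16.7% and 66.7%, near those of all genes. ID4, the fourth ID gene, was lower at 48 h (-1.53, SE 0.22, adjusted p = 9.83e-05), as was ATOH8 (-1.07, SE 0.17, adjusted p = 0.00022). HEY1 was lower at 24 h (3.31 against 6.61 CPM, SE of the log2 change 0.17, adjusted p = 0.00166) and higher at 48 h (11.1 CPM, 0.75, SE 0.15, adjusted p = 0.00101). MSX1 was higher at 48 h, at 20 CPM against 5.64 (1.82, SE 0.15, adjusted p = 1.38e-06).

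A few of these calls rested on single libraries. At 4 h SMURF1 (0.34, SE 0.08) lost its call without control replicate 1 (adjusted p = 0.085) or 4 h replicate 2 (adjusted p = 0.0969). ATOH8 (0.70, SE 0.16) lost it without control replicate 1 (adjusted p = 0.0718) or 4 h replicate 1 (adjusted p = 0.0547), and ID4 (0.71, SE 0.19) without either of those or control replicate 2 (adjusted p = 0.0614 to 0.158). At 24 h GDF11 (0.47, SE 0.12) and BMPR2 (0.43, SE 0.12) lost theirs without any one of the control or 24 h libraries (adjusted p = 0.0615 to 0.19). INHBA at 24 h (0.84, SE 0.20) missed without control replicate 1 (adjusted p = 0.118) or 24 h replicate 1 (adjusted p = 0.104), and FST (-0.53, SE 0.11) without control replicate 1 (adjusted p = 0.0627) or 24 h replicate 2 (adjusted p = 0.0645).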

How the data were processed

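Gene symbols and whole-number read counts were deposited by the authors, with 1 file per library, and the values show no normalisation. Bowtie is the tool named, with builds hg19 and GRCh37, per the submitters' processing notes. Its version is not given in the sources used here, nor are the counting program, gene annotation and strand setting, so reads of overlapping or antisense genes may be shared. Of the 23368 names, 28 had been turned into dates (0.191 to 0.224% of the counts). They were kept.

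Groups and replicate numbers came from the labels. Counts were analysed with edgeR 4.0.16 in R 4.3.3: filterByExpr kept 14448 genes, TMM factors scaled the libraries, and 1 quasi-likelihood fit of all 8 libraries with 1 coefficient per group left 4 residual degrees of freedom. Calls needed an adjusted p (Benjamini-Hochberg, all genes tested) under 0.05. Standard errors are the absolute log2 change over the square root of F. CPM use the TMM factors, and library means of gene groups use log2 CPM with a prior count of 2. The 10 genes, the role lists and the rules for naming genes were chosen with earlier results of these data known. Named pathway genes were up to 2 called genes per role and time with the largest change, from a mean log2 CPM of 1 upwards. Some genes that met this rule are not reported here. Likeness to ID1 and PMEPA1 was taken over genes from a mean log2 CPM of 2 upwards, and the 4 closest are given. Alternatives were DESeq2 1.42.0, other scalings and filters, a replicate block, fits of the compared groups alone and each library left out. A fit without the 48 h libraries was chosen after seeing the data. Sequences are RefSeq's on GRCh38.p14, which is not the authors' build, and serve only as sequence.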

Additional observations from a re-analysis of the deposited data

Results flagged for a closer look

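The change from control, here called the effect, differed between times, in opposite called directions, for 5 of the 10 genes. The control dishes have no time, so the drug and anything else that differed between times cannot be told apart. A gene was listed only if called in opposite directions at 2 times, with the contrast between those treated groups also passing. In that contrast the controls cancel. Passing was thus the entry rule, so the adjusted p values below describe the listed differences and lend them no further support. Between 4 and 48 h 69.5% of all genes tested were called in either direction, and between 24 and 48 h 66.8%. How many of all genes were called in opposite directions at 2 times was not counted, so the 5 have no like share beside them. SMAD6 had the widest turn, with an effect at 48 h that was far below that at 4 h on the log2 scale (a difference of -6.26, SE 0.23, adjusted p = 2.68e-09). For PMEPA1 the difference between the same times was -4.47 (SE 0.10, adjusted p = 1.13e-10), for THBS1 -3.77 (SE 0.10, adjusted p = 1.76e-10), for ID1 -3.73 (SE 0.10, adjusted p = 3.82e-10) and for SKIL -2.25 (SE 0.14, adjusted p = 1.31e-07). Between 24 and 48 h the effect of ID1 differed by -3.58 (SE 0.10, adjusted p = 8.16e-10), that of THBS1 by -2.43 (SE 0.09, adjusted p = 4.43e-09) and that of SKIL by -1.02 (SE 0.14, adjusted p = 7.43e-05). The 24 h call of SKIL, on which its last difference rests, was lost without any one of the control, 4 h or 24 h libraries. In each case both later libraries lay below both earlier ones, but 82.9% of all genes did not overlap between 4 and 48 h and 82.3% between 24 and 48 h, in either direction. All groups held 2 libraries, so no library could be checked as an outlier.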

How the results depend on the processing

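Of the 60 values of the 10 genes over 6 comparisons, 50 were called, where 22.3% to 69.5% of all genes were called per comparison. Of these 50, 41 kept their direction and their call under every alternative in which the gene was tested. None of the 50 reversed. BAMBI was left out by the filter of at least 5 CPM in 2 libraries, so its calls were not tested there. Of the 10 not called, 4 stayed uncalled under every alternative in which the gene was tested. A change of sign without a call was not counted as a reversal, so this says nothing of their direction. ID2 at 48 h reversed with library totals, where it was called lower (-0.23). At 24 h the number of the 10 genes called, 5, was 3 with library totals (22.7% of all genes called). It was 8 in a fit of control and 24 h alone (35.7%) or without the 48 h libraries (34.1%), and it also moved with single libraries left out. The number of pathway genes called at 24 h, 18, was 28 in both of those fits and 12 to 27 with single libraries left out. For these 2 sets of genes the counts in the other comparisons stayed within 1.5 times. The BMP minus TGF-beta contrast at 24 h was -0.25, and -0.40 with medians, -0.34 without PMEPA1 and -0.17 without SMAD6. At 4 h (-1.20) it was -1.40, -0.82 and -1.36, and at 48 h (-1.16) it was 0.33, -1.64 and -0.21, in the same order. Over all genes, the number called at 4 h (4127) was 2227 to 5783 and at 24 h (3222) 1349 to 4954, and that between 4 and 24 h (5997) 3823 to 7338, with single libraries left out, and 5051 at 24 h for the compared groups alone. The cause of these shifts was not tested beyond what leaving out a gene or library shows. Replicate numbers are shared between groups, but the labels do not say that they mark a pairing, and deviations of same-numbered libraries correlated at 0 to 0.14. With the replicate block the number of the 10 genes called was 9 at 4 h (32% of all genes called), 7 at 24 h (25.9%) and 8 at 48 h (68.4%). Depth limits SMAD6 at 48 h, with 7 and 10 counts, and BAMBI, with 33 to 182.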
